A study of Homo sapiens with 72 samples.

Results

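The genes described here are 10 members of the protein kinase C and protein kinase D families, PRKCA, PRKCB, PRKCD, PRKCE, PRKCH, PRKCQ, PRKCI, PRKCZ, PRKD2 and PRKD3. They were listed by name as targets of bryostatin and their relatives, and each was located in GENCODE 44 on hg38. They are 10 of 20033 protein-coding genes and hold 33 of 33608 start clusters, where a start cluster joins the starts of protein-coding transcripts whose surroundings of 1 kb overlap. The marks found at those starts and along the genes were compared between 3 cell lines and between untreated and bryostatin-treated cells.

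Cut&Tag, in which an antibody against a histone mark guides a transposase to the DNA around it, was carried out for H3K4me2, H3K4me3 and H3K27me3. The lines were Raji, from a Burkitt lymphoma, and NALM6 and REH, both from B cell acute lymphoblastic leukemia (ALL). Cells were either left untreated or given 1 nM bryostatin, with 3 libraries for each line, mark and treatment and 54 libraries in all. The labels call the treatment overnight, and the study's text describes it as lasting a full day. The labels give replicate numbers but do not say that these were separate cultures, so the p-values measure the spread between these libraries, which may be technical. Each disease is represented by 1 or 2 established lines, which limits how far they stand for it. In such bulk profiles a mark carried by fewer cells and a weaker mark in every cell cannot be told apart.

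Protein kinase C enzymes fall into 3 classes. Conventional members such as PRKCA and PRKCB need calcium and diacylglycerol, the members PRKCD, PRKCE, PRKCH and PRKCQ respond to diacylglycerol without calcium, and the atypical members PRKCI and PRKCZ respond to neither. Protein kinase D enzymes bind diacylglycerol and are switched on by protein kinase C, and bryostatin takes the place of diacylglycerol in the C1 domains of these proteins. In B cells PRKCB carries the signal of the B cell receptor to NF-kappaB, PRKCD is known for its part in B cell tolerance, and PRKCQ is best known from T cells. H3K4me3 marks starts of active genes, H3K4me2 marks active starts and many enhancers, and H3K27me3 is the mark of Polycomb repression.

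In the 48 libraries on a common scale the number of mapped reads, read from the smallest step of the coverage, was 5.12 to 47.9 M, and the 54 libraries held 590 to 102183 peaks each. For H3K4me2 in Raji the treated libraries were the deeper ones, at 15.6 to 18.8 M reads against 6.70 to 13.9 M. The 6 NALM6 libraries numbered 1 were deposited on another scale with shorter peaks. The library labelled Raji untreated H3K27me3 replicate 2 stood apart, with a peak at 88.6% of the 10132 genes that carried H3K4me3 in all untreated Raji libraries, where the other 5 Raji H3K27me3 libraries had one at 0.355 to 13.0%. All 6 B lineage genes tested, among them PAX5 and CD79A, carried H3K4me2 in every line. The mature B cell genes CR2, MS4A1 and FCER2 carried H3K4me2 and H3K4me3 in Raji only, and none of 3 T cell and 3 myeloid genes carried an H3K4 mark in any line.

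The sequences that the results turn on are shown first. They are the 250 bases before the RefSeq start (GRCh38.p14) of PRKCD, whose start had the largest differences in total signal between Raji and REH, and of PRKCZ, PRKCH and PRKCQ, whose starts were marked in some lines only, read in the direction of the gene. The PRKCQ start in RefSeq lies 370 bp from the one used for the signal. Capitals mark matches to the GC box, which is GGGCGG, the CCAAT box, the AP-1 site, which is TGACTCA, and the E box, which is CACGTG. Both strands were searched and overlapping matches were counted.
PRKCD (chr3:53160959-53161208, plus strand): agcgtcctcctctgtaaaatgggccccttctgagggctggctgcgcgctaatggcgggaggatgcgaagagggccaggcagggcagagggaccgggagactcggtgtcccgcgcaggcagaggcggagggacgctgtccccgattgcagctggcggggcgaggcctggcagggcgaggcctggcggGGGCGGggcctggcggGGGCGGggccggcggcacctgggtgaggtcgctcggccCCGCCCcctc
PRKCZ (chr1:2050161-2050410, plus strand): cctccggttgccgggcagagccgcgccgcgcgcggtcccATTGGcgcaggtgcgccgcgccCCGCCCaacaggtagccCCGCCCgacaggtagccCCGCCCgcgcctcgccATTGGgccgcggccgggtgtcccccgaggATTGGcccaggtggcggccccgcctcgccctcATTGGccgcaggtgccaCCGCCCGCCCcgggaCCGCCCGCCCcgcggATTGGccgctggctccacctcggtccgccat
PRKCH (chr14:61321329-61321578, plus strand): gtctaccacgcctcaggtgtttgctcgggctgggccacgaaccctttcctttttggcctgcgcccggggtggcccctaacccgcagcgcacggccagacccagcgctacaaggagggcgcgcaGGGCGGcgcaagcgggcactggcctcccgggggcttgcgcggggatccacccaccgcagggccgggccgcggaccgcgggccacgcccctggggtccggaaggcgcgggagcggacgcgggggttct
PRKCQ (chr10:6580647-6580896, minus strand): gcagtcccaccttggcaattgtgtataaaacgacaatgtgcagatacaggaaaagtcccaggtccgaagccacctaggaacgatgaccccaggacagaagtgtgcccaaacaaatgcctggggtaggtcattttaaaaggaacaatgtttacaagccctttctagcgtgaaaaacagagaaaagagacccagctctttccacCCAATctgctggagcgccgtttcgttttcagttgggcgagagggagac
The PRKCZ sequence held 7 GC boxes and 5 CCAAT boxes, and PRKCD 3 GC boxes. PRKCH held 1 GC box and PRKCQ only 1 CCAAT box. Of 35116 RefSeq promoters of this length, 42.6% held a GC box, 32% a CCAAT box, 4.2% an AP-1 site and 6.34% an E box. CpG counts were 24 for PRKCD, 37 for PRKCZ and 30 for PRKCH, and 8 for PRKCQ, the lowest of the 10 members, with a median of 11 over all promoters. A match is a description of these letters and not of a bound factor.

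A start was taken as marked in a line when at least 2 of its 3 untreated libraries had a peak within 1 kb. By that measure most members were marked as active in every line. In Raji 8 of 10 members carried H3K4me2 (52.4% of the 19689 genes with a protein-coding transcript) and the same number H3K4me3 (52.4%), and PRKCH and PRKCQ carried neither. In NALM6 7 members carried H3K4me2 (41.8% of all genes) and 8 carried H3K4me3 (51.0%), PRKCQ being the one with H3K4me3 alone. In REH all 10 carried H3K4me2 (55.9%) and 9 carried H3K4me3 (49.0%), PRKCZ being the exception. The number of NALM6 members with H3K4me3 was 3 when every library was trimmed to an equal number of peaks, so part of that count rests on the weaker peaks.

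H3K27me3 was found at few members. In REH only PRKCZ carried it (1 of 10, 12.2% of all genes). In NALM6 it was found at PRKCZ and at the upstream start of PRKCD (2 of 10, 8.79%). In Raji PRKCQ and PRKD3 met the rule (2 of 10, 14.4%). Without the library labelled replicate 2 no member did, but replicates 1 and 3 then both had to have a peak. Replicate 1 held 851 peaks in all and had a peak at 0 members, so that outcome was fixed by it. Replicate 3 had a peak at 3 members.

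**Figure D1:**
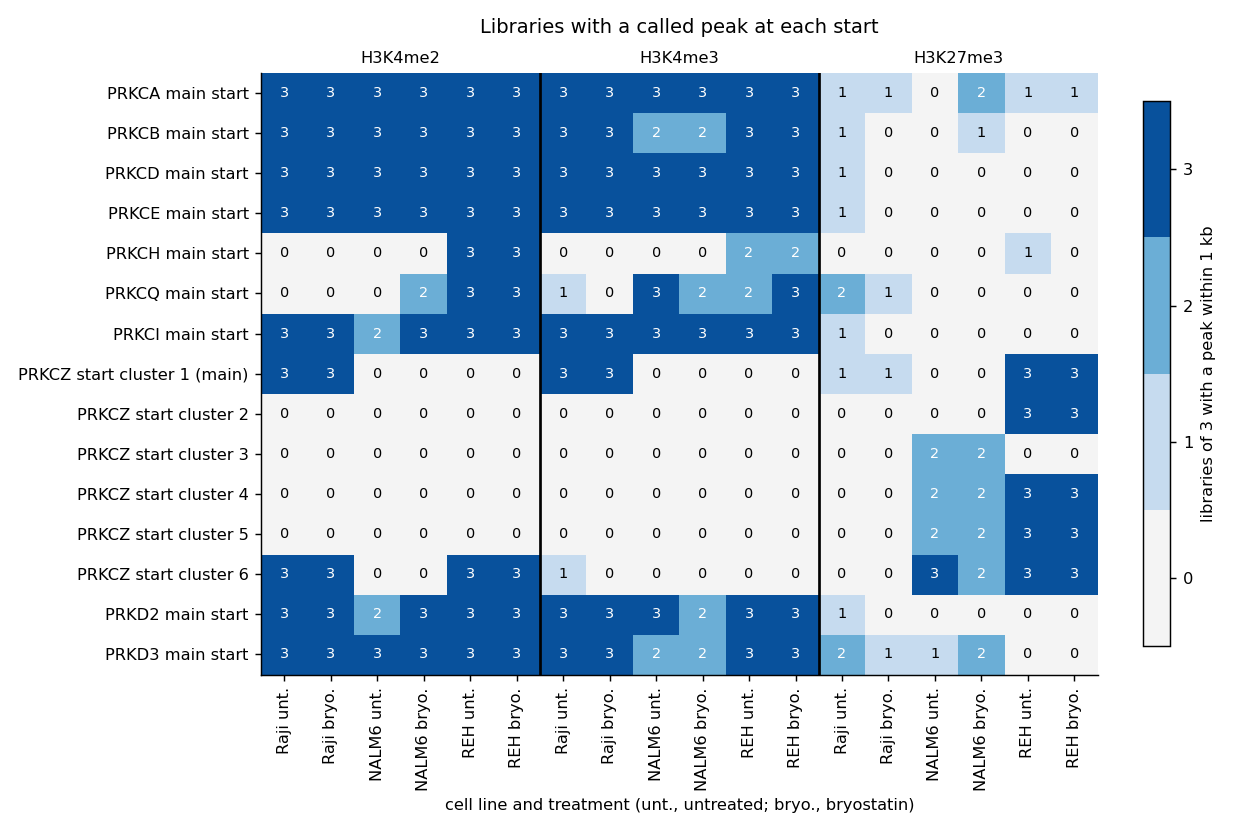
Number of libraries of 3 with a peak within 1 kb of a start, for the main start of each gene and the 6 start clusters of PRKCZ (rows), in each line, mark and treatment (columns). PRKCZ carries H3K4me2 and H3K4me3 at its main start in Raji alone and H3K27me3 there in REH, and PRKCH is marked by H3K4me2 in REH only.

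Signal at a start is given as the called signal within 1 kb of the main (MANE) start, in multiples of the median of all genes with a peak there in the same library. The window has the same length for every gene, but the value counts only the part of it inside called peaks. It therefore also depends on the length of the called peaks, which were shorter in the NALM6 libraries numbered 1. A value of 0 means that no peak was called. Over the 19061 genes with such a start the members covered a wide span.

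Among the conventional members, PRKCA (chr17:66302613-66810743) had a single start cluster with H3K4me2 in every untreated library. Its H3K4me2 start signal was 0.756, 0.972 and 0.944 in untreated Raji, 1.20, 1.47 and 1.60 in NALM6, with 1.78, 1.46 and 1.66 in REH. Every Raji value lay under every value of the other lines, and NALM6 and REH overlapped. PRKCB (chr16:23835983-24220611), which relays B cell receptor signals, was marked at its main start in all lines. Its H3K4me2 start signal was 1.45, 1.44 and 1.83 in Raji, 3.37, 1.86 and 1.70 in NALM6, with 2.20, 1.90 and 1.85 in REH. The lowest H3K4me3 values of PRKCB were in NALM6, at 0, 0.424 and 0.427, against 1.29, 1.91 and 1.61 in Raji and 1.36, 1.10 and 1.16 in REH. H3K4me2 at PRKCB in NALM6 was therefore as high as in the other lines while its H3K4me3 lay under all of their values.

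PRKCD (chr3:53156009-53192717) was the calcium-independent member with the widest range of H3K4me3 at its start. Its H3K4me3 start signal was 2.47, 2.79 and 2.59 in Raji, 0.899, 1.71 and 1.66 in NALM6, with 0.895, 0.667 and 0.681 in REH. The 3 groups did not overlap, in the order Raji, NALM6, REH, although NALM6 replicate 1 lay close to the highest REH library. For H3K4me2 at the start Raji (1.71 to 2.21) and NALM6 (1.63 to 1.89) overlapped and REH (0.851 to 0.917) was lower. In Raji the H3K4me2 did not stop at the start but ran on into the gene. It covered 45.6, 35.0 and 60.4% of the gene in untreated Raji (mean 47.0% ± 12.8, SD, n = 3), against 4.68, 10.9 and 12.3% in NALM6, with 10.9, 10.2 and 8.94% in REH. The 2 start clusters inside the gene, at 53165129 and at 53168741 to 53168797, carried H3K4me2 in 3 of 3 untreated and 3 of 3 treated Raji libraries and in no library of the other lines. Narrower H3K4me3 covered 10.7% ± 0.645 of PRKCD in untreated Raji (SD, n = 3). The upstream start at 53156009, used by 1 transcript, was the one with H3K27me3 in NALM6, in 2 of 3 untreated and 2 of 3 treated libraries.

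PRKCE (chr2:45651345-46187990), the longest member, was marked at its main start in all 3 lines. Its H3K4me3 start signal was 2.28, 1.75 and 1.88 in Raji, 2.07, 2.22 and 1.97 in NALM6, with 2.25, 1.79 and 2.32 in REH, and all groups overlapped. PRKCH (chr14:61187559-61550976), with 9 start clusters, was marked at its main start in REH alone. The REH H3K4me2 values were 0.982, 1.04 and 0.821, and the H3K4me3 values 0.461, 0 and 0.445, while Raji and NALM6 were at 0 in every library of both marks. Raji instead had a peak inside PRKCH and away from any of its annotated protein-coding starts, at chr14:61476041-61481500, with H3K4me2 in 3 of 3 untreated and 3 of 3 treated libraries. H3K4me3 was found within the same stretch in 2 of 3 untreated and 2 of 3 treated Raji libraries. No NALM6 library and 1 REH library of each treatment had H3K4me2 there.

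PRKCQ (chr10:6427143-6580301), with 1 start cluster, carried H3K4me2 in REH at 0.789, 0.644 and 0.971 and in no untreated library of Raji or NALM6. Its H3K4me3 was weak where it was called, at 0.547, 0.487 and 0.403 in NALM6 and 0.591, 0 and 0.554 in REH. In Raji, H3K27me3 covered 0, 11.3 and 51.2% of PRKCQ in the 3 untreated libraries and 0, 2.04 and 18.2% in the treated ones. The second of the untreated values is from the library that stood apart, so the wide cover of this gene rests on the libraries numbered 3. H3K27me3 was called nowhere in PRKCQ in NALM6 or REH.

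Of the atypical members PRKCI (chr3:170222424-170305977) was marked in all lines. Its H3K4me3 start signal was 1.61, 1.22 and 1.56 in Raji, 0.511, 1.26 and 1.56 in NALM6, with 1.41, 1.34 and 1.40 in REH, and the groups overlapped. By the rule above PRKCQ had H3K27me3 in Raji and H3K4me3 in NALM6 and REH. The state of PRKCZ (chr1:2050411-2185395) also differed in kind between the lines. At its main start, H3K4me2 was 1.52, 1.58 and 1.64 and H3K4me3 was 1.03, 1.38 and 1.06 in Raji, and both were 0 in every library of NALM6 and REH. In REH, H3K27me3 was called in 3 of 3 untreated and 3 of 3 treated libraries at the main start and at the clusters near 2073462, 2111654, 2116205 and 2133638. It covered 55.1, 57.4 and 37.5% of the gene in untreated REH (mean 50.0% ± 10.9, SD, n = 3) and 45.4, 52.1 and 57.0% after bryostatin. In NALM6 it covered 0.450, 15.9 and 13.2% untreated, with no peak at the main start in any untreated library, and in Raji at most 0.770% in any library. The H3K27me3 stretch over the main start, merged over all libraries (chr1:2007371-2054330), held a peak in 2 of 3 treated NALM6 libraries.

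The last start cluster of PRKCZ, from 2133638 to 2134990 and used by 3 transcripts, differed from the main start. It carried H3K4me2 in 3 of 3 untreated and 3 of 3 treated libraries of both Raji and REH. In REH it was the 1 PRKCZ start with both H3K4me2 and H3K27me3 within 1 kb. The REH stretches lay side by side and did not overlap, with H3K4me2 at chr1:2131951-2134310 and H3K27me3 at chr1:2134381-2147710. The REH H3K27me3 stretch at the main start (chr1:2003201-2053830) also covered the starts of the neighbouring genes CFAP74 and GABRD.

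**Figure D2:**
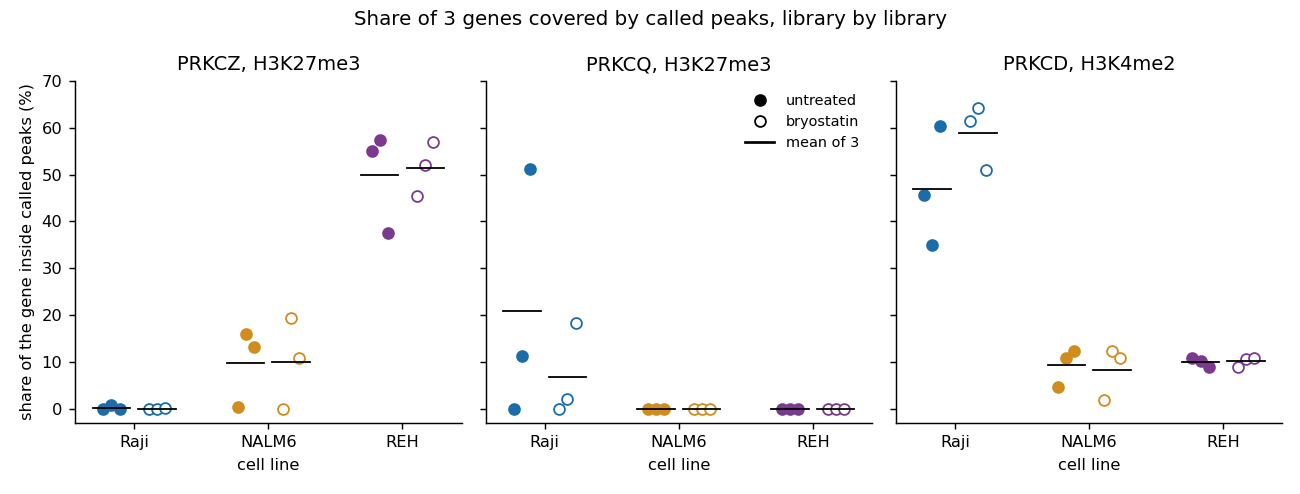
Percent of the annotated gene covered by called peaks in each library (dots) with the mean of 3 libraries (bars), for H3K27me3 over PRKCZ and PRKCQ and H3K4me2 over PRKCD, by line and treatment. PRKCZ is covered to 37.5 to 57.4% by H3K27me3 in REH, and PRKCD to 35.0 to 64.3% by H3K4me2 in Raji.

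Of the protein kinase D genes, PRKD2 (chr19:46674275-46717127) had high H3K4me2 at its start. The values were 1.93, 1.91 and 2.19 in Raji, 0, 1.46 and 1.44 in NALM6, with 2.05, 2.09 and 1.96 in REH, and the 0 came from a NALM6 library on the other scale. Its H3K4me3 was low in NALM6, at 0.356, 0.427 and 0.382, against 0.969, 1.39 and 1.44 in Raji and 1.40, 1.23 and 1.47 in REH. Every NALM6 value lay under every value of Raji and REH. PRKD3 (chr2:37250502-37324833) had H3K4me2 of 1.62, 1.30 and 1.50 in Raji against 0.966, 0.906 and 0.760 in REH, and of 0.615, 1.01 and 1.02 in NALM6. The Raji values lay above all others. The starts of the noncoding genes PRKCZ-DT, PRKD3-DT, PRKCH-AS1 and PRKCQ-AS1 lie within the start regions of their neighbours. Cut&Tag does not tell strands apart, so the signal there cannot be assigned to either gene of a pair. This includes the REH H3K4me2 at the starts of PRKCH and PRKCQ.

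**Figure D3:**
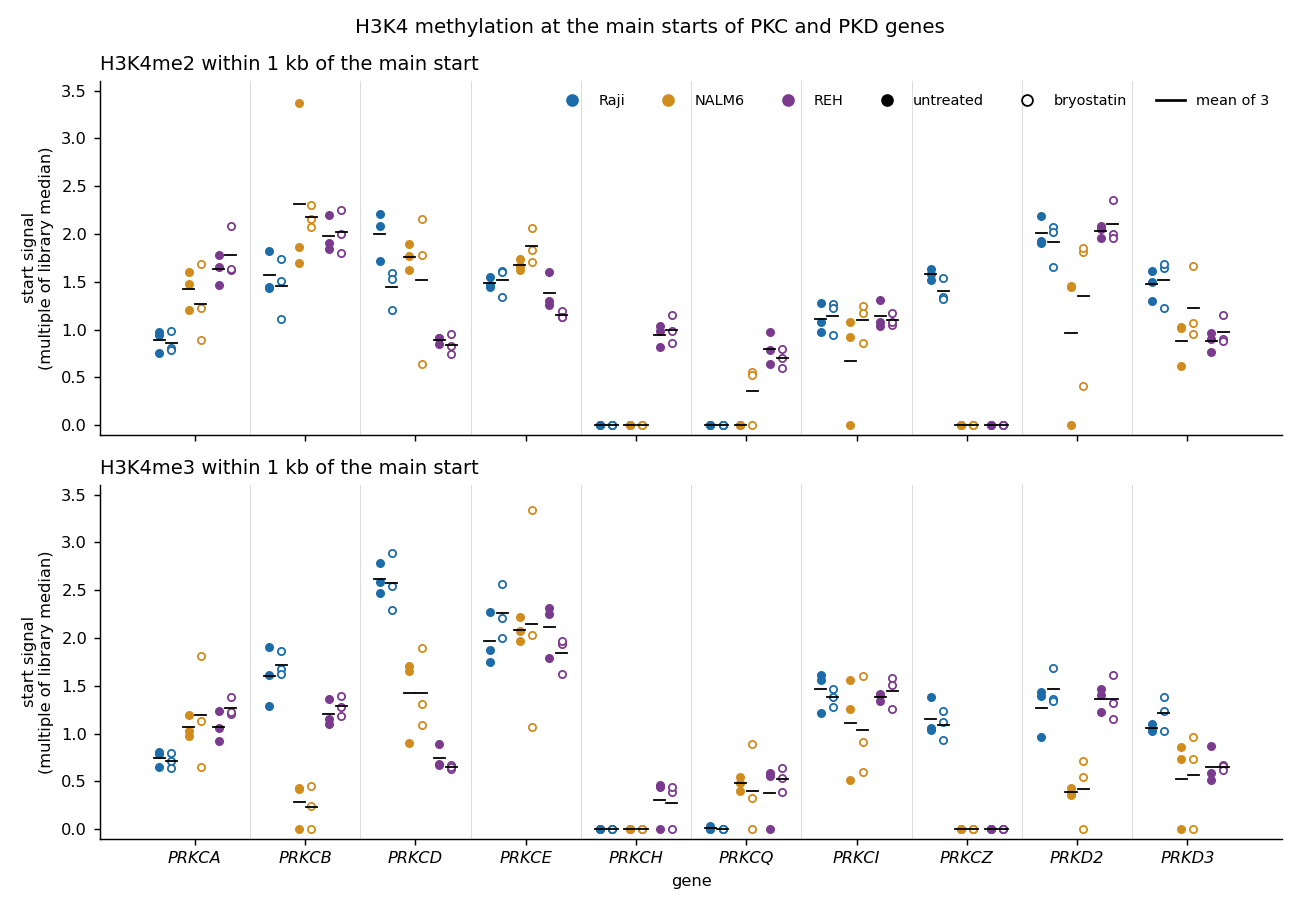
Called signal within 1 kb of the main start of each gene, in multiples of the median marked gene of the same library, for H3K4me2 and H3K4me3 by line and treatment. Dots are libraries and bars are means of 3. PRKCD is highest in Raji for H3K4me3, and PRKCZ is above 0 in Raji only.

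Starts called in all 3 untreated libraries of 1 line and in none of another were counted for the 3 pairs of lines, which share libraries. For H3K4me2, PRKCZ was called in Raji and not in NALM6 (1 of 10 members, 4.55% of all genes). PRKCH and PRKCQ were called in REH and not in Raji (2 of 10, 6.64%), and PRKCH, PRKCQ and PRKCZ in REH and not in NALM6 (3 of 10, 8.04%). The PRKCZ start that sets REH apart from NALM6 is the last cluster and not the main start. For H3K4me3, PRKCZ was called in Raji and not in NALM6 (1 of 10, 2.85%) and not in REH (1 of 10, 2.17%). No test was made of these counts.

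Where a start region was called in all 6 untreated libraries of 2 lines, its total signal was compared with limma, with Benjamini-Hochberg adjustment over all regions tested and a threshold of 0.05. Values are relative to the median tested region of each library, and a region is the union of overlapping peaks, so its value counts length as well as height. Between Raji and REH, 6 of 8 members differed for H3K4me2, against 46.8% of all 7999 regions, and 6 of 7 for H3K4me3, against 51.3% of 6729. Differences between these lines were common over all regions, and nothing particular to the members is read from their counts. PRKCB H3K4me2 did not pass, at a log2 difference of 0.03 (SE 0.11, limma adjusted p = 0.815).

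PRKCD was the member with the largest difference in total signal between Raji and REH for both marks. Its H3K4me2 region (chr3:53157381-53176980) had a relative signal of 7.40, 8.80 and 8.98 in Raji and 0.972, 1.02 and 0.941 in REH. The called length was 11880 to 19600 bp in Raji and 3280 to 4010 bp in REH. The log2 difference was 3.10 (SE 0.11, limma adjusted p = 6.3e-10), and by mean signal per base it was the smallest of 12 alternatives, at 0.63, and still past the threshold. For H3K4me3 the values were 3.10, 2.93 and 3.14 in Raji against 0.664, 0.613 and 0.621 in REH, a log2 difference of 2.27 (SE 0.08, limma adjusted p = 1.0e-07).

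PRKD3 and PRKCB were the other members higher in Raji. PRKD3 differed by 0.66 for H3K4me2 (SE 0.12, limma adjusted p = 0.000707) and by 0.62 for H3K4me3 (SE 0.11, limma adjusted p = 0.00147). PRKCB H3K4me3 was 1.80, 2.17 and 2.00 in Raji and 1.20, 1.27 and 1.20 in REH, a log2 difference of 0.70 (SE 0.09, limma adjusted p = 0.000124). The groups did not overlap for either gene. The PRKCB call was lost by the mean signal per base, at 0.30 (limma adjusted p = 0.187), and with no centring (limma adjusted p = 0.249). Both PRKD3 calls were lost with no centring (limma adjusted p = 0.154 and 0.470).

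PRKCA, PRKD2 and PRKCE had a lower total signal in Raji than in REH. PRKCA fell by 0.77 for H3K4me2 (SE 0.18, limma adjusted p = 0.00278) and by 0.85 for H3K4me3 (SE 0.14, limma adjusted p = 0.000679) on the log2 scale. PRKD2 fell by 0.71 for H3K4me2 (SE 0.11, limma adjusted p = 0.000211) and 0.41 for H3K4me3 (SE 0.10, limma adjusted p = 0.00641). The called length of the PRKD2 H3K4me2 region was 5620 to 7480 bp in Raji and 10520 to 11340 bp in REH. PRKCE fell by 0.37 for H3K4me3 (SE 0.07, limma adjusted p = 0.00231). Within 1 kb of the main start, the signals of Raji and REH overlapped for PRKD2 in both marks and for PRKCE H3K4me3. By the maximum signal the H3K4me3 differences of PRKD2 and PRKCE turned to 0.03 and 0.20, and the calls of PRKCA H3K4me3 and PRKD2 H3K4me2 were lost (limma adjusted p = 0.0819 and 0.211). Of 12 alternatives, 10 kept the PRKD2 H3K4me2 call and 9 kept each of the H3K4me3 calls of PRKD2 and PRKCE. For H3K4me2, PRKCI (-0.37, SE 0.12, limma adjusted p = 0.0240) and PRKCE (-0.30, SE 0.11, limma adjusted p = 0.0481) passed narrowly. PRKCI missed the threshold without Raji replicate 2 or any 1 of the REH libraries (limma adjusted p = 0.0558 to 0.0893), and PRKCE without Raji replicate 1 or 2 or REH replicate 2 or 3 (limma adjusted p = 0.0938 to 0.170).

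Against NALM6 fewer regions passed. NALM6 and REH differed at 1 of 6 members for H3K4me2 (11.4% of all regions) and at 2 of 5 for H3K4me3 (7.15%), and Raji and NALM6 at 2 of 6 (18.9%) and 2 of 5 (20.2%). PRKCD was among the members called in each of these 4 comparisons. Its H3K4me2 signal was 1.60, 1.77 and 1.93 in NALM6 and 0.757, 0.785 and 0.714 in REH, a log2 difference of 1.23 (SE 0.15, limma adjusted p = 0.00288). Raji was above NALM6 by 1.91 for H3K4me2 (SE 0.16, limma adjusted p = 0.000323), and this was -0.13 with the mean signal per base. For H3K4me3 PRKCD differed by 1.09 between NALM6 and REH (SE 0.23, limma adjusted p = 0.0373) and by 1.18 between Raji and NALM6 (SE 0.23, limma adjusted p = 0.0101). By the mean signal per base PRKCD missed the threshold against REH for both marks (limma adjusted p = 0.0526 and 0.0513), and by the maximum it missed it between Raji and NALM6 for both (limma adjusted p = 0.296 and 0.305).

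PRKD2 H3K4me3 was lower in NALM6 than in both other lines. It was 0.323, 0.667 and 0.588 in NALM6 and 2.44, 2.45 and 2.38 in REH, a log2 difference of -2.27 (SE 0.27, limma adjusted p = 0.00559), and Raji was above NALM6 by 1.86 (SE 0.28, limma adjusted p = 0.00360). The groups were far apart in both pairs. PRKD3 H3K4me2 was higher in Raji than in NALM6 by 0.68 (SE 0.17, limma adjusted p = 0.0285). That call was lost without any 1 library other than NALM6 replicate 1 (limma adjusted p = 0.0578 to 0.103). The PRKCD H3K4me3 call against REH was lost without NALM6 replicate 2 or 3 or any 1 of the REH libraries (limma adjusted p = 0.104 to 0.166), and against Raji without Raji replicate 1 or 3 (limma adjusted p = 0.0503 to 0.0538).

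Members tested both with and without NALM6 replicate 1, which has the other scale and shorter peaks, had lower SEs without it. Leaving it out also changed which regions were tested, and the cause of the lower SEs was not tested. Without that library the members called were 2 and 5 between NALM6 and REH and 4 and 5 between Raji and NALM6, for H3K4me2 and H3K4me3. The share of all regions called rose with them, to 33.8% and 44.7% and to 32.9% and 45.1%. PRKCB H3K4me3 then entered the comparison, lower in NALM6 than in REH by a log2 difference of -1.72 (SE 0.09, limma adjusted p = 1.3e-07) and than in Raji by 2.40 (SE 0.11, limma adjusted p = 1.6e-06).

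**Figure D4:**
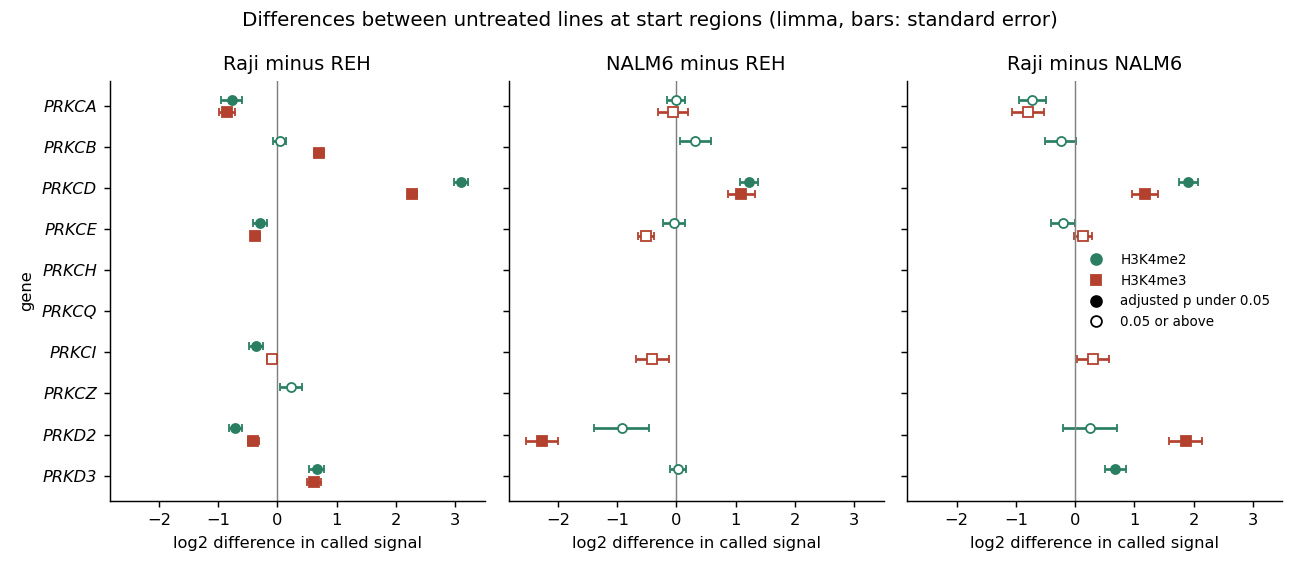
Log2 difference in total signal (± SE, limma) at the start regions of the members between untreated lines, for H3K4me2 and H3K4me3. Filled points passed an adjusted p of 0.05. PRKCD lies to the side of Raji in every comparison with Raji, with 3.10 against REH for H3K4me2 as the largest value.

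Bryostatin left the start regions of the members without a call in the 7 sets of line and mark that were fitted. In Raji 0 of 8 members passed for H3K4me2 (0% of 9316 regions) and 0 of 8 for H3K4me3 (0.155% of 9040), by limma over the 6 libraries of a line and mark. In NALM6 it was 0 of 6 for H3K4me2 (0% of 4128) and 0 of 4 for H3K4me3 (0% of 3838). In REH it was 0 of 10 for H3K4me2 (1.45% of 10791), 0 of 7 for H3K4me3 (1.67% of 7238) and, for H3K27me3, 0 of 1, PRKCZ (0% of 8324). At an unadjusted p under 0.05 limma gave 626 and 511 regions for Raji, 56 and 7 for NALM6, with 1066, 763 and 216 for REH, in the same order. The members among them were PRKD2 in Raji and PRKCH, PRKCI and PRKCA in REH. The log2 differences of the members lay between -0.32 and 0.11 for H3K4me2 and between -0.13 and 0.29 for H3K4me3 in Raji, and between -0.28 and 0.31 and between -0.11 and 0.24 in REH. Those in NALM6 ranged more widely, from -0.58 to 0.50 for H3K4me2, with SEs of 0.24 to 0.50.

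The 4 members with an unadjusted limma p under 0.05 all had groups that did not overlap, which adds no support, since they were picked by that p. PRKD2 H3K4me3 in Raji was 2.33, 2.86 and 2.82 untreated and 3.05, 3.39 and 3.29 with bryostatin, a log2 difference of 0.29 (SE 0.10, limma adjusted p = 0.762). PRKCH H3K4me2 in REH was 0.779, 0.720 and 0.816 untreated and 0.903, 0.927 and 1.04 treated, a difference of 0.31 (SE 0.10, limma adjusted p = 0.230). PRKCI H3K4me2 in REH was 1.26, 1.16 and 1.25 untreated and 0.997, 0.933 and 1.09 treated (-0.28, SE 0.09, limma adjusted p = 0.246). PRKCA H3K4me3 in REH was 0.963, 0.952 and 0.798 untreated and 1.15, 1.06 and 0.985 treated (0.24, SE 0.09, limma adjusted p = 0.328). None of them passed once all regions were accounted for. Same-numbered libraries of the Raji H3K4me3 set deviated together, with correlations of 0.540, 0.482 and 0.525, and these fits did not use the numbers. Over 13 alternatives, the replicate block among them, the lowest limma adjusted p of PRKD2 in that set was 0.0714.

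PRKCD in Raji had the most negative value of that line for H3K4me2, 7.70, 9.30 and 9.21 untreated against 5.63, 6.88 and 8.65 with bryostatin (-0.32, SE 0.15, limma adjusted p = 0.718). The ranges overlapped. After treatment H3K4me2 covered 61.4, 64.3 and 50.9% of the gene, which overlapped the untreated cover as well. PRKCZ H3K27me3 in REH, over 4 start regions, had log2 differences of -0.14 to -0.32 (SE 0.27 to 0.35), all with a limma adjusted p of 1. H3K27me3 in Raji and NALM6 was not fitted, since the number of peaks per library differed too widely.

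Presence at any start of a gene changed for 3 members, each gained and none lost, where gained means 2 or 3 of 3 treated and 0 of 3 untreated libraries. A change at 1 start of a gene already marked at another is not counted, as for the PRKCZ H3K27me3 stretch in NALM6 given above. PRKCH gained H3K4me2 in Raji at the start at 61390694 (1 of 10 members, 1.36% of all genes), where the treated libraries were deeper. PRKCQ gained H3K4me2 in NALM6 (1 of 10, 3.10%), at 0, 0.552 and 0.526 after treatment, and PRKCA gained H3K27me3 in NALM6 (1 of 10, 1.82%). None of the 3 was gained when each library of a line and mark was trimmed to an equal number of peaks.

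An intron of PRKCE held an H3K4me2 site that NALM6 showed with bryostatin alone, and which was singled out after its values were seen. In NALM6 the region chr2:45689631-45693790, about the point 39610 bp into the gene from the main start, was called in 0 of 3 untreated and 3 of 3 treated libraries. It was 1 of 17 NALM6 H3K4me2 regions in the members, against 0.960% of all 13338 regions gained in this way. The 300 bases around its centre are shown with the same capitals as above, because they hold an AP-1 site.
PRKCE (chr2:45691136-45691435, hg38, plus strand): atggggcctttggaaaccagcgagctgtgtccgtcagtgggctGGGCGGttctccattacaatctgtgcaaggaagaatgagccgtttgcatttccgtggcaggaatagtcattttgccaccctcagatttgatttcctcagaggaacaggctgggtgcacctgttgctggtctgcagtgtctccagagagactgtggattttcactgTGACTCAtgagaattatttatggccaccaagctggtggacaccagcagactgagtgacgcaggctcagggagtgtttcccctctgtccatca
The AP-1 match begins 59 bp from the centre at 45691344. An AP-1 site was present in 3.63% of the 300-base stretches around the maxima of the 12332 H3K4me2 peaks of 1 treated NALM6 library, and a GC box in 63.7%. Those peaks include the ones at gene starts, unlike this site. The site was picked for its values and its sequence shown for this match, so these shares are no test of it. The signal within 1 kb of this centre was 0, 0 and 0 in untreated NALM6 and 0.761, 0.565 and 0.457 with bryostatin (mean 0.594 ± 0.154, SD, n = 3). In Raji it was 0 in the 3 untreated libraries and 0.447, 0.360 and 0 in the treated ones. REH had the mark without treatment, at 0.689, 0.609 and 0.540, and at 0.544, 0.536 and 0.652 with it, so that the groups overlapped there. The highest treated NALM6 value, 0.761, came from replicate 1, which is on the other scale with shorter peaks, and it raises the mean. Treated replicate 2, at 0.565, lay within the range of the REH libraries, and treated replicate 3, at 0.457, lay under all of them. Untreated NALM6 replicate 3 had 8.24 M reads, fewer than treated replicates 2 and 3 (21.2 and 23.4 M). Untreated replicate 2 lay between those treated depths. The treated NALM6 libraries had more peaks (7891, 12332 and 12157) than the untreated ones (7130, 9192 and 11663), and with 7130 peaks taken from each the site was called in 0 untreated and 1 treated NALM6 library.

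In REH the wider region around this site (chr2:45689571-45699320) had relative signals of 0.890, 0.704 and 0.518 untreated and 1.31, 1.03 and 0.913 with bryostatin. The log2 difference was 0.64 (SE 0.17, limma adjusted p = 0.119). A fit that took the replicate number as a block gave a limma adjusted p of 0.00238. Same-numbered libraries of this set deviated together only weakly, with correlations of 0.131, 0.203 and 0.205. The labels do not say that the numbers pair the libraries. The called length was 6690, 3890 and 2370 bp untreated and 8970, 6710 and 4450 bp treated, and the mean signal per base differed by 0.04 (limma adjusted p = 0.991). Without treated replicate 3 the total passed (limma adjusted p = 0.0216). The higher total signal came with a longer called stretch.

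Over whole genes 0 members passed in the 7 sets fitted. For H3K4me2 it was 0 of 9 in Raji (0% of 9191 genes), 0 of 6 in NALM6 (0% of 4251) and 0 of 10 in REH (0.0783% of 10214). For H3K4me3 it was 0 of 8 (0% of 10135), 0 of 4 (0% of 4691) and 0 of 7 (0.307% of 8473), and for H3K27me3 in REH 0 of 1 (0% of 2489). At an unadjusted p under 0.05 limma gave no member in any of these 7 fits, and 469, 74 and 495 genes for H3K4me2, 471, 14 and 522 for H3K4me3, and 50 for H3K27me3.

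An interaction of line and treatment, fitted by limma to the 12 libraries of Raji and REH, asked whether the response to bryostatin differed between these lines. For H3K4me2 0 of 8 members passed (0.0275% of 7267 regions). The H3K4me3 count was 0 of 7 (0.0776% of 6447). Unadjusted p under 0.05 was reached by 479 and 287 regions. PRKCI had the largest positive value for H3K4me2, 0.38 higher in Raji than in REH (SE 0.15, limma adjusted p = 0.699), and PRKD2 had -0.36 (SE 0.16, limma adjusted p = 0.726). The other members lay between -0.36 and 0.20 for both marks, with SEs of 0.10 to 0.25.

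The rest of the pathway was followed in 19 genes that make, remove, sense or pass on the diacylglycerol signal. Of these 17 carried H3K4me2 in untreated Raji, 13 in NALM6 and 16 in REH, and 16, 13 and 13 carried H3K4me3. RASGRP1, another protein with a C1 domain, carried H3K4me2 in all untreated libraries of Raji and REH and in none of NALM6. Between Raji and REH 7 of 13 pathway genes passed for H3K4me2 and 7 of 12 for H3K4me3, shares near those of all regions. Bryostatin changed 1 of 12 in REH H3K4me3 and none in the other fits. This was HDAC5, a substrate of protein kinase D, at an inner start (chr17:44108941-44112060), which rose by 1.13 on the log2 scale (SE 0.14, limma adjusted p = 0.00105). By the mean signal per base 0 of the 7238 regions of that fit passed, HDAC5 included.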

How the data were processed

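The data were Cut&Tag libraries of 3 histone marks in 3 B cell lines with or without bryostatin, grouped by the labels, and 54 of 72 samples were used. The 18 IgG samples were not analysed here. Per the labels and methods, the authors trimmed reads with Trim Galore, aligned them to hg38 with Bowtie2, computed RPKM coverage and called stringent peaks with SEACR in each library separately, and bcl2fastq and DESeq2 are also named in the submitters' processing notes, with no versions given in the sources used here. The deposited signal values are the coverage summed over each peak and its maximum. In 48 libraries the signal is RPKM in bins of 10 bp, whose steps gave the number of mapped reads, and 6 libraries (NALM6 replicate 1) have another scaling that the sources used here do not explain. A peak that is not called says only that it was not detectable at that depth. No file or column with values was set aside.

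The authors used DESeq2 on reads. The files used here hold signal per called peak and no counts, so log2 total signal was compared with limma 3.58.1 in R 4.3.3 (eBayes with trend, Benjamini-Hochberg adjustment). Peaks of the libraries compared were merged at 1 bp overlap, regions called in all 6 libraries were kept, and each library was centred on its median. Start clusters, windows of 1 kb and gene bodies came from GENCODE 44. Tables and figures were made with Python 3.11.15 and matplotlib 3.10.9. The fits were tested on simulated data.

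All 10 members are named, and other pathway genes come from a list of 19, named where they passed the test or were called in all libraries of 1 line and none of another. Not every gene that met this rule is reported here. The members and lists were chosen with earlier results of these data known. The replicate numbers were checked for pairing: same-numbered libraries deviated together, with every correlation over 0.1, in 5 of 7 sets (range -0.308 to 0.676 over all sets). They did not for Raji H3K4me2 and REH H3K27me3. Alternatives covered quantile normalization, values without centring, the mean or maximum signal in place of the total, eBayes without trend, the replicate block, regions called in 3 of 6 libraries, other windows, overlaps and numbers of peaks, and leaving out each library.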

Additional observations from a re-analysis of the deposited data

How the results depend on the processing

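No member passed the adjusted threshold for bryostatin at start regions or gene bodies, nor in the comparison of the response of Raji and REH, under any alternative run, the replicate block included. The PRKCE region at 45689571 in REH, which lies inside the gene and away from its starts, passed with the replicate block (limma adjusted p = 0.00238) and without treated replicate 3 (limma adjusted p = 0.0216). With the replicate block the limma counts over all regions moved from 14 to 132 for Raji H3K4me3, from 157 to 305 for REH H3K4me2 and from 121 to 202 for REH H3K4me3, and taking the mean signal per base gave 0, 1 and 0. Of the values that answer a comparison, 330 stayed the same and 44 moved, and of the single regions 265 stayed, 47 lost their call, 2 gained one and 9 changed sign. The sign changed to 0.10 for the PRKCE region at 45859621 in REH with the mean signal per base, to -0.14 for PRKD2 in Raji H3K4me3 with the maximum, and between lines with no centring to -0.24 and -0.26 for PRKCD (NALM6 minus REH, H3K4me2 and H3K4me3). With the mean signal per base it changed to -0.13 for PRKCD (Raji minus NALM6) and 0.10 for PRKCI (Raji minus REH) H3K4me2, and with the maximum to 0.22 for PRKCE H3K4me2 and to 0.035 and 0.20 for PRKD2 and PRKCE H3K4me3 (Raji minus REH). Members called between NALM6 and REH for H3K4me2 were 1, with 0 by mean signal or no centring and 1 to 2 leaving out a library. For H3K4me3 they were 2, with 1 by the maximum or mean, 0 by no centring, 4 for regions called in 3 of 6 libraries and 1 to 5 leaving out a library. Between Raji and NALM6 H3K4me2 had 2, with 0 by the maximum or no centring, 1 by the mean and 1 to 4 leaving out a library, and H3K4me3 had 2, with 1 by the maximum, 0 by no centring, 6 in 3 of 6 and 1 to 5 leaving out a library. Raji and REH H3K4me3 had 6, with 3 by the maximum or mean and 2 by no centring. NALM6 without centring compares 2 scales, and the other causes were not tested. Members with H3K27me3 in Raji were 2, with 4 at 2 kb, 1 in the upper 0.5 of the peaks, 0 with the same number of peaks or in 3 of 3 libraries and 0 to 2 leaving out a library. In NALM6 they were 2, with 1 with the same number of peaks or in 3 of 3 and 1 to 2 leaving out a library. H3K4me3 in NALM6 marked 8, with 5 in the upper 0.5 and 3 with the same number of peaks. In REH H3K4me2 marked 10 and H3K4me3 9, with 6 and 4 in the upper 0.5. The 2 alternatives on the PRKCE site with equal peak numbers and on Raji without H3K27me3 replicate 2 were chosen after seeing the data.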

Other observations

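Away from annotated starts H3K4me2 was called at further places inside the members. REH alone had a region in PRKCB (chr16:23913151-23915780) in 3 of 3 untreated and 3 of 3 treated libraries, and 1 in PRKCQ (chr10:6541851-6544700) in 3 of 3 and 2 of 3. Raji and REH shared a region in PRKCB (chr16:23858091-23865460), called in 3 of 3 untreated libraries of each and in none of NALM6. PRKCD had a second Raji region (chr3:53178701-53182050), in 3 of 3 untreated and 3 of 3 treated libraries of Raji and 1 untreated library of NALM6. In PRKCE a region at chr2:45832981-45844940 was called in 3 of 3 libraries of each treatment in both Raji and REH, and in 1 untreated and 2 treated libraries of NALM6. Another PRKCE region (chr2:45859621-45863390), called in 3 of 3 libraries of each treatment in REH, differed there by -0.37 with bryostatin (SE 0.14, limma adjusted p = 0.353). In Raji it was called in 0 untreated and 2 treated libraries, and in NALM6 in none. Regions within PRKCA at chr17:66444901-66447770 and chr17:66493381-66495070 were called in 2 treated and 0 untreated Raji libraries, where the treated libraries were deeper.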
